A study of Mus musculus with 18 samples.

Results

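The genes described were 10 transcription factors and antiproliferative proteins tied to lymphocyte quiescence: Foxo1, Foxo3, Klf2, Klf3, Klf4, Klf6, Klf13, Btg1, Btg2 and Tob1. They were chosen by name, found in the deposited count tables by their Entrez number, and make up 10 of the 28096 genes counted in each library. They and the gene lists below were chosen with earlier results of these data known, so shares set beside all tested genes are descriptions. All 10 were among the 14161 genes with enough reads to be tested. On GRCm38, Foxo1 (Entrez 56458) lies at chr3:52268337-52350109 and Foxo3 (56484) at chr10:42181845-42276695. The KLF genes are Klf2 (16598) at chr8:72319062-72321654, Klf3 (16599) at chr5:64803521-64832901, Klf4 (16600) at chr4:55527137-55532475, Klf6 (23849) at chr13:5861489-5870393 and Klf13 (50794) at chr7:63886351-63938915. The BTG/TOB genes are Btg1 (12226) at chr10:96617001-96622813, Btg2 (12227) at chr1:134074865-134079155 and Tob1 (22057) at chr11:94209842-94215495. Counts were taken over the exons of each of these protein-coding genes.

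The libraries were polyA RNASeq of splenic B cells from C57BL/6 N mice at least 8 weeks old, either WT or Ubqln1-/-. Ubqln1 encodes Ubiquilin1, a ubiquitin-binding chaperone, and the knockout is germline, made by deleting a floxed exon 2 with Cre in ES cells, so that no cell of these mice has the intact gene. Cells of each genotype were cultured for 4 hr with an anti-IgM F(ab)2 antibody at 10 μg/mL, which crosslinks the B cell receptor (BCR), with E. coli K12 LPS at 20 μg/mL, which acts through Toll-like receptor 4, or without a stimulus (resting), and each of these 6 groups holds 3 libraries. Triplicate wells were pooled into each library, and the study describes its RNASeq as 3 independent experiments.

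FOXO1 and FOXO3 are forkhead transcription factors that promote cell cycle arrest and survival genes in resting lymphocytes; AKT phosphorylates them after BCR signalling and sends them out of the nucleus. KLF2 is a zinc finger factor known for holding naive lymphocytes quiescent and controlling their trafficking receptors, and KLF3, KLF4, KLF6 and KLF13 belong to the same family. BTG1, BTG2 and TOB1 are antiproliferative proteins that recruit the CCR4-NOT deadenylase to mRNA. The FOXO proteins are controlled largely by phosphorylation, which mRNA counts do not measure.

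The promoters of 4 members are shown because these genes mark the main patterns: Klf2 with the largest fall, Foxo1 as the FOXO gene with the larger fall with anti-IgM, Btg1 as the member that was higher with anti-IgM, and Btg2 as its close paralogue that was lower. Each is the 250 bases before the annotated gene start, 5′ to 3′ on the strand of the gene, from RefSeq on GRCm38.p6, and all 10 members matched a promoter. Capitals mark, on either strand, the GC box CCGCCC, the CACCC box CCACCC to which KLF factors can bind, the FOXO core GTAAACA and the cAMP response element TGACGTCA, and overlapping matches run together.
Klf2 chr8:72318812-72319061 (+ strand): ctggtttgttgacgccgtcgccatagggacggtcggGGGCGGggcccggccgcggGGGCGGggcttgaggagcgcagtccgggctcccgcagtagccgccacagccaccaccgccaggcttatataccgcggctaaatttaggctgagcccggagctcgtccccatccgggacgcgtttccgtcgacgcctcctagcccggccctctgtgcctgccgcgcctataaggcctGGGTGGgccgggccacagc
Foxo1 chr3:52268087-52268336 (+ strand): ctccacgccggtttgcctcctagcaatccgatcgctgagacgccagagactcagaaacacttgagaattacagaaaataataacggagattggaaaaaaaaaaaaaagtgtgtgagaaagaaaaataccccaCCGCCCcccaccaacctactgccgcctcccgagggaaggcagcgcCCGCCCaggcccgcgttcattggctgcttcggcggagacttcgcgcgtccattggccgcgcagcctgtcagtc
Btg1 chr10:96616751-96617000 (+ strand): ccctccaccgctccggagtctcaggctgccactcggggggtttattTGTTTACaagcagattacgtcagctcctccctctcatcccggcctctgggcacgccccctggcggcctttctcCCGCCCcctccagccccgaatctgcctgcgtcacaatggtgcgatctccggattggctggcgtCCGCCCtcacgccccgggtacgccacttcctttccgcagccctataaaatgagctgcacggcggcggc
Btg2 chr1:134079156-134079405 (- strand): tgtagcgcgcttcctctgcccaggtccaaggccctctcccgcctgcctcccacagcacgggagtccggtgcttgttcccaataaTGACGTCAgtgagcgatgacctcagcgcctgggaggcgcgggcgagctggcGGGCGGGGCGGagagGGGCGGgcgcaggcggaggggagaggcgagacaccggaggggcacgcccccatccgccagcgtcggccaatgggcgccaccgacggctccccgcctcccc

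Searched in the same way, CCGCCC occurred in 10 of the 10 member promoters, against 32.7% of 32817 mouse promoters of this length and 56.4% of the 12718 that belong to tested genes. The member promoters were rich in G and C, between 56.0% and 78.4% with a median of 72.4%, against a median of 59.6% for promoters of tested genes. CCACCC was found in 4 members (Klf2, Klf3, Klf13 and Tob1), against 32.6% of promoters of tested genes. GTAAACA was found in Btg1 alone among the members, 204 to 198 bases before the gene start (2.20% of promoters of tested genes), and TGACGTCA in Btg2 alone, 166 to 159 bases before it (2.60%). For Tob1 the promoter in the RefSeq table is chr11:94211204-94211453 (+ strand), which lies inside the gene span given above rather than before it, while the other 9 directly precede theirs. These matches describe letters in the sequence and no binding was measured.

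The libraries held 15368941 to 41072854 counts, with a median of 23257531. The 7 B cell markers were abundant in every library, and their summed level was 7355 to 8873 CPM (the count scaled to library size) in WT resting cells, 2765 to 3514 with anti-IgM and 5795 to 6873 with LPS. Among markers of other cells, the T cell genes Cd3d, Cd3e, Cd3g and Cd4 were at or below 0.319 CPM in every library. Lck, also on the list of 8 T cell markers, was at 30.7 to 222 CPM, Cd28 at 0.384 to 5.35, Cd8a at 0.067 to 1.09 and Cd8b1 at 0.047 to 0.534. The summed level of that list was 49.1 to 63.3 CPM in WT resting cells, 127 to 217 with anti-IgM and 33.2 to 46.6 with LPS. The summed level of the 8 myeloid markers was 22.0 to 49.2 CPM in WT resting cells, 13.8 to 16.5 with anti-IgM and 11.8 to 17.9 with LPS. Of these markers, Adgre1 was at 4.66 to 39.5 CPM, Lyz2 at 1.03 to 6.82, Itgam at 0.866 to 6.02 and Csf1r at 0.305 to 3.39. The part of these levels of other cells in the results below was not tested. In bulk RNA, fewer cells of a type and less RNA per cell cannot be told apart. Ubqln1 itself, counted over all its exons, was 2.42-fold lower in Ubqln1-/- than in WT resting cells (edgeR, adjusted p = 6.68e-08), 2.68-fold lower with anti-IgM and 2.71-fold lower with LPS, and the libraries of the genotypes did not overlap.

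Levels of different genes were compared as RPKM, which divides the count by gene width and library size. In WT resting cells Klf2 had the highest level of the members at 217 ± 25.1 RPKM (SD, n = 3), followed by Btg2 at 189 ± 9.14 and Btg1 at 137 ± 2.88. Foxo1 stood at 77.3 ± 6.50 RPKM and Foxo3 at 15.9 ± 2.34. Klf13 (54.6 ± 4.62), Klf3 (47.1 ± 8.84) and Klf6 (42.0 ± 9.08) were next to each other, Tob1 was at 12.4 ± 1.46 and Klf4 was lowest at 2.07 ± 0.325. The libraries of Klf2 and Btg2 overlapped, as did those of Klf13 with Klf3, Klf3 with Klf6, and Foxo3 with Tob1, and all other neighbours in this order were separate. The order was the same in Ubqln1-/- resting cells, where Klf2 was at 216 ± 25.5 and Btg2 at 191 ± 0.883. After 4 hr with anti-IgM the order had changed. Btg1 was highest at 169 ± 11.1 RPKM in WT cells, ahead of Btg2 at 81.9 ± 18.1 and Klf2 at 49.9 ± 7.55, with no overlap between these 3. With LPS the leading members were again Btg1 at 147 ± 5.97, Btg2 at 106 ± 10.5 and Klf2 at 59.4 ± 9.21.

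**Figure D1:**
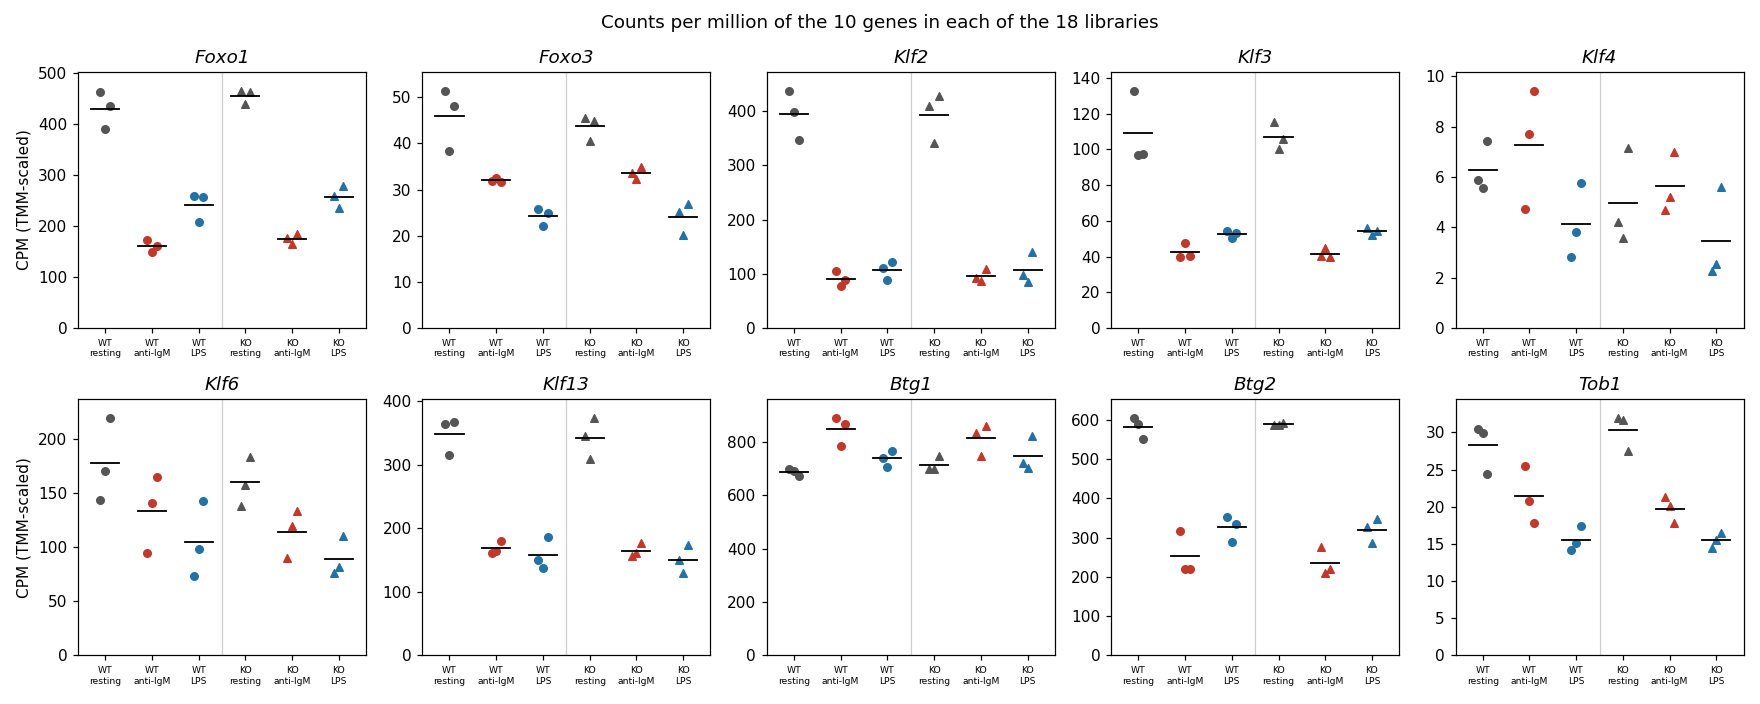
CPM, scaled by TMM library size, of each member in each library (vertical axes from 0), with one point per library, circles for WT, triangles for Ubqln1-/- (KO) and a line at the mean of each group. Foxo1, Foxo3, Klf2, Klf3, Klf13 and Btg2 sit lower in all stimulated libraries than in all resting ones, and Btg1 does not.

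Most members fell within 4 hr of either stimulus. With anti-IgM, 7 of the 10 were lower in WT cells and 7 in Ubqln1-/- cells (edgeR, adjusted p under 0.05), namely Foxo1, Foxo3, Klf2, Klf3, Klf13, Btg2 and Tob1 in both genotypes, while 1, Btg1, was higher in both. Over all tested genes, 32.2% were lower and 32.4% higher with anti-IgM in WT cells, and 32.4% lower and 32.9% higher in Ubqln1-/- cells. With LPS, 8 members were lower in WT and 8 in Ubqln1-/- cells, the same 7 together with Klf6, and 0 were higher; the shares of all tested genes were 30.1% lower and 31.2% higher in WT, and 30.2% lower and 30.6% higher in Ubqln1-/- cells. The median log2 fold change of the 10 members was −0.78 with anti-IgM and −0.85 with LPS in WT cells, against −0.01 over all tested genes in each case. The members lower with both stimuli in both genotypes were 7 of 10, against 20.4% of tested genes. Because the members were chosen with earlier results of these data known, this difference is not independent support. Both stimuli were compared with the same resting libraries. At the cut-offs that the study applied, an absolute log2 fold change above 2 and an adjusted p below 0.001, Klf2 with anti-IgM was the one member called, in both genotypes, where 2.04% of tested genes were called lower in WT and 1.85% in Ubqln1-/- cells.

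**Figure D2:**
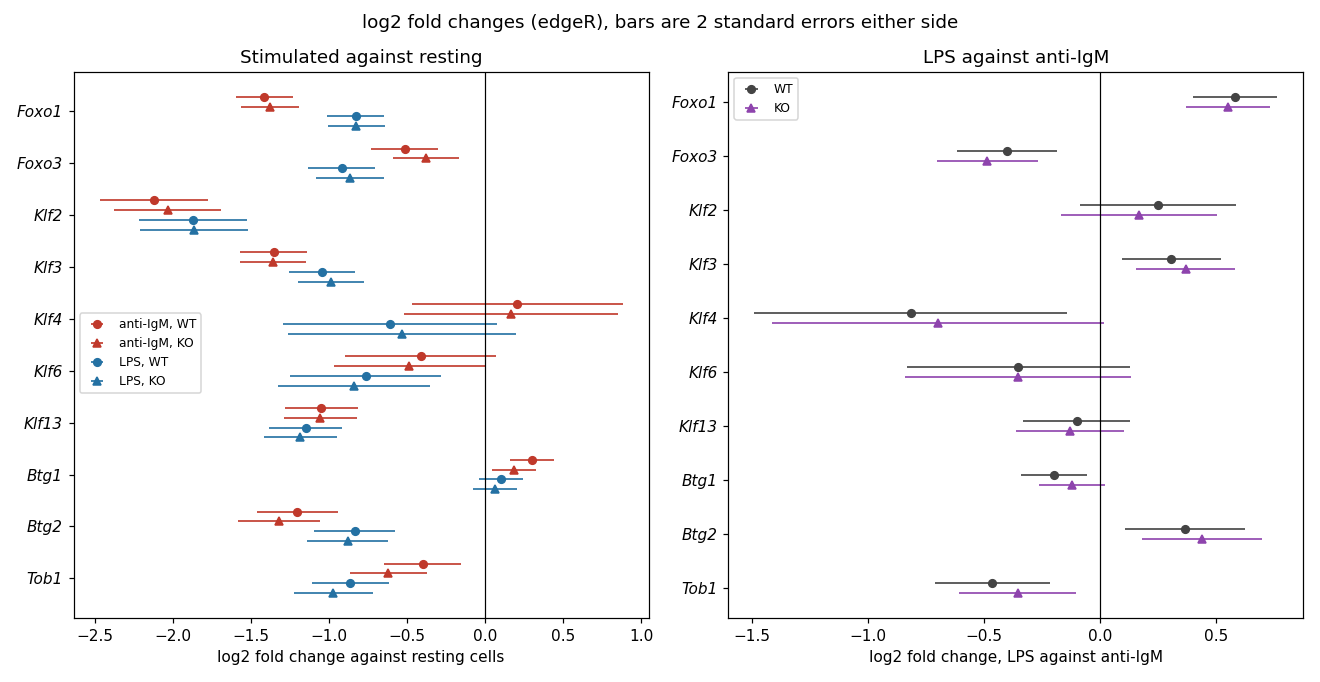
log2 fold changes from edgeR with bars of 2 standard errors either side, for each stimulus against resting cells (left) and for LPS against anti-IgM (right), circles for WT and triangles for Ubqln1-/- (KO). Klf2 lies farthest to the left, Btg1 is the member to the right of 0 with anti-IgM with bars that do not reach it, and Foxo1 and Foxo3 stand on opposite sides of 0 in the right panel.

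Both FOXO genes fell with both stimuli, and each fell more with a different one. Foxo1, the main FOXO factor of B cells, was at 462, 390 and 435 CPM in WT resting cells, at 172, 149 and 161 CPM with anti-IgM, and at 259, 207 and 258 CPM with LPS. In Ubqln1-/- cells Foxo1 was at 465, 438 and 463 CPM at rest, 176, 165 and 185 CPM with anti-IgM, and 258, 235 and 278 CPM with LPS. The resting, LPS and anti-IgM libraries thus formed 3 separate ranges in each genotype. The log2 fold change of Foxo1 with anti-IgM was −1.41 ± 0.09 (SE) in WT cells (edgeR, adjusted p = 2.09e-09) and −1.38 ± 0.09 in Ubqln1-/- cells, which left 37.5% and 38.5% of the resting level. With LPS it was −0.83 ± 0.09 and −0.82 ± 0.09, which left 56.3% and 56.5%. In WT cells 869 of the 14161 tested genes fell more than Foxo1 with anti-IgM and 1684 fell more with LPS.

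Foxo3, a second FOXO factor, was at 51.3, 38.3 and 48.0 CPM in WT resting cells, 31.9, 32.5 and 31.6 CPM with anti-IgM, and 25.7, 22.1 and 25.0 CPM with LPS. The resting libraries were highest and the LPS libraries lowest, again with no overlap, so that anti-IgM and LPS stood in the opposite order from Foxo1. The log2 fold change with anti-IgM was −0.52 ± 0.11 in WT (edgeR, adjusted p = 0.000452) and −0.38 ± 0.11 in Ubqln1-/- cells (adjusted p = 0.00493). With LPS it was −0.92 ± 0.11 and −0.86 ± 0.11. Compared directly, LPS cells had 1.5-fold more Foxo1 than anti-IgM cells in WT (adjusted p = 7.56e-05) and 1.47-fold more in Ubqln1-/- cells, whereas Foxo3 was 1.32-fold lower with LPS than with anti-IgM in WT (adjusted p = 0.00797) and 1.40-fold lower in Ubqln1-/- cells (adjusted p = 0.00238). These FOXO calls were kept with each library left out in turn.

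Within a library, the ratio of Foxo1 to Foxo3 in RPKM was 4.68 to 5.30 in WT resting cells, 2.39 to 2.81 with anti-IgM and 4.89 to 5.38 with LPS. In Ubqln1-/- cells it was 5.32 to 5.62, 2.65 to 2.76 and 5.33 to 6.08. The anti-IgM libraries lay below both other conditions in each genotype, and the resting and LPS libraries overlapped. By a two-sided exact permutation test of 3 against 3 libraries, p for anti-IgM against resting was 0.1 in each genotype, the smallest this design allows, and 0.164 after adjustment over the 18 ratio comparisons computed. The Foxo1 to Foxo3 ratio was also higher in Ubqln1-/- than in WT resting cells without overlap (means 5.44 and 4.90, exact permutation p = 0.1, adjusted 0.164), while the genotypes overlapped with anti-IgM and with LPS.

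Klf2, which drives genes of lymphocyte trafficking, fell more than any other member. It was at 437, 399 and 347 CPM in WT resting cells, 105, 77.9 and 88.7 CPM with anti-IgM, and 111, 89.7 and 123 CPM with LPS. In Ubqln1-/- cells it was at 410, 341 and 428 CPM at rest, 93.4, 86.3 and 108 CPM with anti-IgM, and 97.2, 85.6 and 141 CPM with LPS. All stimulated libraries lay far below the resting ones, and anti-IgM and LPS libraries overlapped. The log2 fold change was −2.12 ± 0.17 in WT (edgeR, adjusted p = 2.11e-08) and −2.03 ± 0.17 in Ubqln1-/- cells with anti-IgM, a fall of 4.35-fold and 4.10-fold. With LPS it was −1.87 ± 0.17 in each genotype. Of the tested genes, 277 fell more than Klf2 with anti-IgM in WT cells and 125 fell more with LPS. The difference between LPS and anti-IgM in WT was 0.25, with an interval of 2 standard errors from −0.09 to 0.59.

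Klf3, a repressor of the family, was at 133, 97.1 and 97.5 CPM in WT resting cells, 39.8, 47.7 and 40.2 CPM with anti-IgM, and 54.3, 50.6 and 53.5 CPM with LPS. Klf13 was at 365, 315 and 368 CPM at rest, 162, 164 and 181 CPM with anti-IgM, and 150, 137 and 186 CPM with LPS. For both genes the resting libraries were separate from all stimulated ones in each genotype. Klf3 fell to 39.1% of resting with anti-IgM and 48.5% with LPS in WT cells, and to 39.0% and 50.5% in Ubqln1-/- cells. Klf3 was higher with LPS than with anti-IgM, by 0.31 ± 0.11 on the log2 scale in WT (edgeR, adjusted p = 0.0338) and 0.37 ± 0.11 in Ubqln1-/- cells (adjusted p = 0.0133). Klf13 fell to 48.4% with anti-IgM and 45.1% with LPS in WT cells, and its anti-IgM and LPS libraries overlapped (difference −0.10, interval −0.33 to 0.13).

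Klf6, an early-response KLF gene, was at 143, 170 and 219 CPM in WT resting cells, 94.1, 141 and 165 CPM with anti-IgM, and 73.0, 98.2 and 142 CPM with LPS. In Ubqln1-/- cells it was at 138, 157 and 183 CPM at rest, 90.0, 120 and 133 CPM with anti-IgM, and 76.1, 81.7 and 110 CPM with LPS. In all 6 groups replicate 3 was highest and replicate 1 lowest, a pattern shown by 0.636% of tested genes, so the groups were broad while each stimulated library was below the resting library of its own number. Klf6 was lower with LPS, at a log2 fold change of −0.77 ± 0.24 for WT (edgeR, adjusted p = 0.0114) and −0.84 ± 0.24 in Ubqln1-/- cells (adjusted p = 0.00697). Without WT resting replicate 3 the WT value was −0.58 (adjusted p = 0.0682), and without WT LPS replicate 1 it was −0.56 (adjusted p = 0.0596). With anti-IgM the values were −0.41 ± 0.24 (adjusted p = 0.143) and −0.48 ± 0.24 (adjusted p = 0.0883), not past the threshold. With the replicate number as a block they were −0.42 in WT (adjusted p = 0.000256) and −0.49 in Ubqln1-/- cells (adjusted p = 5.39e-05), and with that block Klf6 was also lower with LPS than with anti-IgM (log2 −0.36 in each genotype, adjusted p = 0.00199 and 0.00285).

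Klf4 was the least abundant member, with 38 to 203 counts per library. It was at 5.88, 5.57 and 7.42 CPM in WT resting cells, 4.75, 7.69 and 9.42 CPM with anti-IgM, and 2.84, 3.81 and 5.76 CPM with LPS. The 3 ranges overlapped in each genotype, and replicate 3 was highest in all 6 groups, as for 3.81% of tested genes. The log2 fold changes in WT cells were 0.21 ± 0.34 with anti-IgM (edgeR, adjusted p = 0.613) and −0.61 ± 0.34 with LPS (adjusted p = 0.135), and those in Ubqln1-/- cells 0.17 ± 0.34 and −0.53 ± 0.37. Between stimuli, Klf4 differed by −0.82 ± 0.34 in WT (adjusted p = 0.077) and −0.70 ± 0.36 in Ubqln1-/- cells (adjusted p = 0.157). In each same-numbered pair LPS libraries had less Klf4 than resting libraries, at 48.3%, 68.4% and 77.7% of the resting level in WT. With the replicate block Klf4 was lower with LPS than at rest in WT (−0.62, adjusted p = 0.00372) and in Ubqln1-/- cells (−0.55, adjusted p = 0.0163), and lower with LPS than with anti-IgM (−0.83, adjusted p = 0.00051, and −0.76, adjusted p = 0.00271). Leaving out single libraries also brought these differences past the threshold. Without WT LPS replicate 3, Klf4 was −0.91 with LPS against rest (edgeR, adjusted p = 0.0446) and −1.12 against anti-IgM (0.0312), and without WT anti-IgM replicate 1 the latter was −1.05 (0.0299). Without Ubqln1-/- LPS replicate 3 the values in Ubqln1-/- cells were −1.04 (adjusted p = 0.0264) and −1.20 (0.0232).

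**Figure D3:**
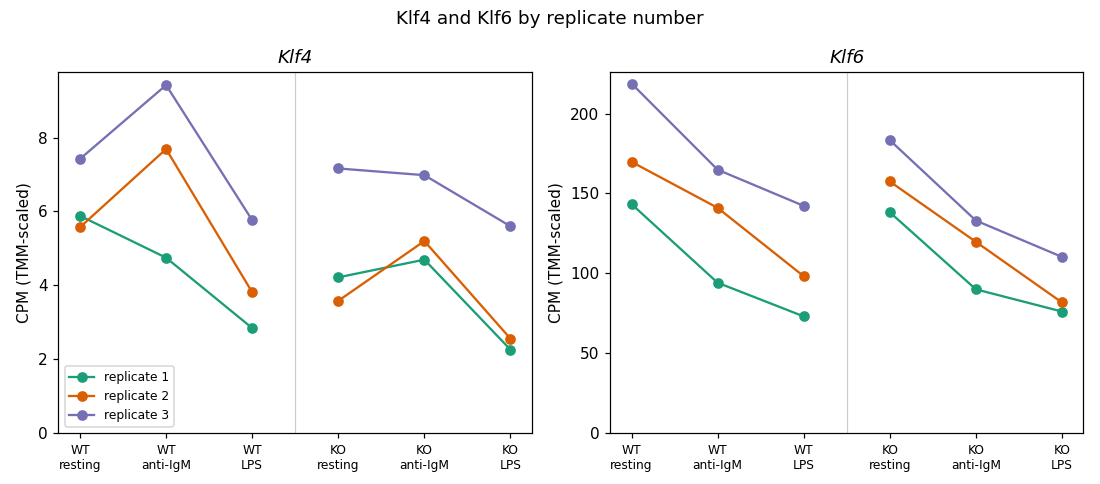
CPM of Klf4 (left) and Klf6 (right) in the 18 libraries, with libraries of the same replicate number and genotype joined by a line. Replicate 3 is highest in all 6 groups for both genes, and each Klf6 line falls from resting to LPS.

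The BTG/TOB genes moved apart. Btg1 was at 699, 693 and 671 CPM in WT resting cells, 890, 784 and 868 CPM with anti-IgM, and 740, 708 and 767 CPM with LPS. Every anti-IgM library lay above every resting library in WT, and the same held in Ubqln1-/- cells, where Btg1 was at 699, 700 and 746 CPM at rest and 833, 748 and 860 CPM with anti-IgM. The rise was small, 1.23-fold in WT (edgeR, adjusted p = 0.00133) and 1.14-fold in Ubqln1-/- cells (adjusted p = 0.0293). The Ubqln1-/- call was lost without resting replicate 1 or 2 or anti-IgM replicate 1 or 3 (adjusted p 0.0666 to 0.106). With LPS the log2 fold changes of 0.10 (interval −0.04 to 0.24) and 0.07 (−0.08 to 0.21) did not pass the threshold. In WT the LPS libraries still lay above all resting ones, and in Ubqln1-/- cells the libraries overlapped.

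Btg2, also known as a p53 target gene, was at 604, 590 and 550 CPM in WT resting cells, 317, 221 and 220 CPM with anti-IgM, and 353, 290 and 335 CPM with LPS. In Ubqln1-/- cells the values were 586, 587 and 591 CPM at rest, 277, 211 and 219 CPM with anti-IgM, and 326, 286 and 347 CPM with LPS. No stimulated library reached a resting one. The log2 fold change with anti-IgM was −1.20 ± 0.13 in WT (edgeR, adjusted p = 5.02e-07) and −1.32 ± 0.13 in Ubqln1-/- cells, and with LPS −0.84 ± 0.13 and −0.88 ± 0.13. Btg2 was 1.29-fold higher with LPS than with anti-IgM in WT, where the libraries overlapped (adjusted p = 0.038), and 1.36-fold higher in Ubqln1-/- cells, where they did not (adjusted p = 0.0153).

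Tob1 was at 30.5, 29.9 and 24.5 CPM in WT resting cells, 25.5, 20.8 and 17.8 CPM with anti-IgM, and 14.2, 15.1 and 17.4 CPM with LPS. The LPS libraries were lowest, and with anti-IgM the highest WT library overlapped the lowest resting one. With anti-IgM the log2 fold change was −0.40 ± 0.12 in WT (edgeR, adjusted p = 0.00921), lost without anti-IgM replicate 3 (−0.28, adjusted p = 0.0697), and −0.62 ± 0.12 in Ubqln1-/- cells (adjusted p = 0.000299). With LPS it was −0.86 ± 0.12 and −0.97 ± 0.13. Tob1 was thus at 55.0% of resting with LPS and 75.8% with anti-IgM in WT cells, and the difference between the stimuli was −0.46 ± 0.12 (adjusted p = 0.00801).

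The ratio of Btg2 to Btg1 within a library, in RPKM, was 1.33 to 1.41 in WT resting cells, 0.411 to 0.580 with anti-IgM and 0.666 to 0.775 with LPS. Btg2 was therefore the more abundant of the paralogues in every resting library and the less abundant in every stimulated one, in both genotypes. The 3 conditions were separate in each genotype (exact permutation p = 0.1, the smallest possible, adjusted 0.164). The genotypes overlapped in each condition, with means of 1.37 and 1.34 at rest, 0.483 and 0.471 with anti-IgM, and 0.717 and 0.694 with LPS.

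**Figure D4:**
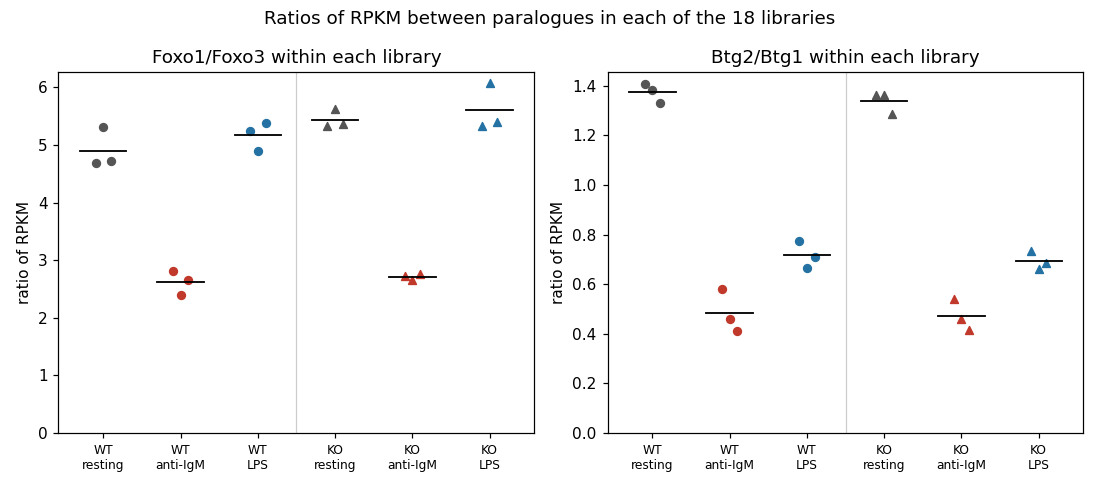
Ratio of RPKM of Foxo1 to Foxo3 (left) and of Btg2 to Btg1 (right) within each library, with circles for WT, triangles for Ubqln1-/- (KO) and a line at the mean of each group. The Foxo1 to Foxo3 ratio is low with anti-IgM alone (2.39 to 2.81 in WT), and the Btg2 to Btg1 ratio is above 1 in resting libraries alone.

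Across all members, 3 were higher with LPS than with anti-IgM in WT cells (Foxo1, Klf3 and Btg2) and 3 lower (Foxo3, Btg1 and Tob1), against 17.4% and 15.0% of tested genes. In Ubqln1-/- cells the same 3 were higher and 2 were lower (Foxo3 and Tob1), against 16.8% and 14.5%. Foxo1 and Foxo3 in both genotypes and Klf3 in Ubqln1-/- cells kept these calls whichever library was left out, and the others did not. Klf3 in WT was lost without anti-IgM replicate 1 or 3 or LPS replicate 1 or 3, Btg1 in WT without anti-IgM replicate 1 or 3 or LPS replicate 1 or 2, and Btg2 in WT without anti-IgM replicate 2 or 3 or LPS replicate 1 or 3 (adjusted p 0.0774 to 0.19). Tob1 was lost in WT without anti-IgM replicate 1 (adjusted p = 0.0597) and in Ubqln1-/- cells without anti-IgM replicate 1 or 2 or any 1 LPS library (0.0581 to 0.15), and Btg2 in Ubqln1-/- cells without anti-IgM replicate 2 or 3 or LPS replicate 3 (0.0658 to 0.0818).

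The libraries of stimulated and resting cells did not overlap for most members. With anti-IgM 6 members were below rest without overlap in WT cells (all those called lower other than Tob1), against 32.8% of tested genes, and 8 in Ubqln1-/- cells, with Tob1 and Klf6 added, against 35.7%. With LPS 8 members were below rest without overlap in each genotype, against 30.5% in WT and 34.0% in Ubqln1-/- cells. Btg1 was above rest without overlap with anti-IgM in WT (33.4% of tested genes) and Ubqln1-/- cells (35.6%). It was also above rest without overlap with LPS in WT cells (31.8%).

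No member was called between genotypes in any condition. At rest the Btg1 libraries were higher in Ubqln1-/- than in WT cells without overlap, as for 4.45% of tested genes. The ranges were 698.71 to 746.21 against 671.42 to 698.69 CPM, and the resting libraries of the other members overlapped. Between genotypes 0 of the 10 members passed an adjusted p of 0.05 in edgeR at rest, with anti-IgM or with LPS. In this fit without a block 0 had an unadjusted p under 0.05, against 4.22%, 5.14% and 3.93% of tested genes. DESeq2 and the fit with the replicate block called 0 members. Over all tested genes 0.0565% were called between genotypes at rest, 0.0989% with anti-IgM and 0.0424% with LPS. These are 8, 14 and 6 genes, where the replicate block called 49, 94 and 125 and DESeq2 32, 47 and 51. For the members other than Klf4 and Klf6 the log2 differences lay between −0.11 (Tob1 with anti-IgM) and 0.12 (Foxo1 with anti-IgM), and their intervals of 2 standard errors within −0.36 to 0.42. For Klf2 with anti-IgM the interval was −0.25 to 0.42, for Foxo1 −0.06 to 0.30, and for Btg2 −0.36 to 0.16. Differences of these sizes could not be seen in this fit without a block. With the replicate block the Foxo1 difference with anti-IgM was 0.12 ± 0.05 (SE), against an SE of 0.09 without it. The intervals were wider for Klf6, from −0.71 at the lowest to 0.33, and for Klf4, from −1.04 to 0.46. Klf4 was lower in Ubqln1-/- than in WT cells in 9 of 9 pairs of the same condition and number, as for 1.97% of tested genes, and Klf6 and Klf13 in 8 of 9, where 7.37% of tested genes were lower in 8 or 9. Foxo1 was higher in 8 of 9 pairs, where 8.16% of tested genes were higher in 8 or 9. With the replicate block the smallest adjusted p of a member was 0.36, for Klf6 with anti-IgM (−0.21 ± 0.09). The unadjusted p of Klf6 in that edgeR fit was 0.0265 with anti-IgM and 0.034 with LPS. Those of Foxo1 and Klf4 with anti-IgM were 0.0295 and 0.0422. The share of all tested genes at an unadjusted p under 0.05 with the block was not set beside these. The summed level of the plasma cell markers was lower in Ubqln1-/- than in WT cells at rest (185 to 215 against 252 to 465 CPM). It was also lower with anti-IgM (154.5 to 186.9 against 213.7 to 404.5 CPM) and with LPS (98.0 to 130.4 against 145.8 to 328.7 CPM). The 4 markers were Sdc1, Jchain, Prdm1 and Tnfrsf17, of which Jchain was the most abundant (73.7 to 390 CPM). Of the 3 tested, 0 were called between genotypes in any condition (edgeR). At an unadjusted p under 0.05 there were 2 at rest, 2 with anti-IgM and 1 with LPS. The part of these markers in the genotype differences of the members was not tested.

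**Figure D5:**
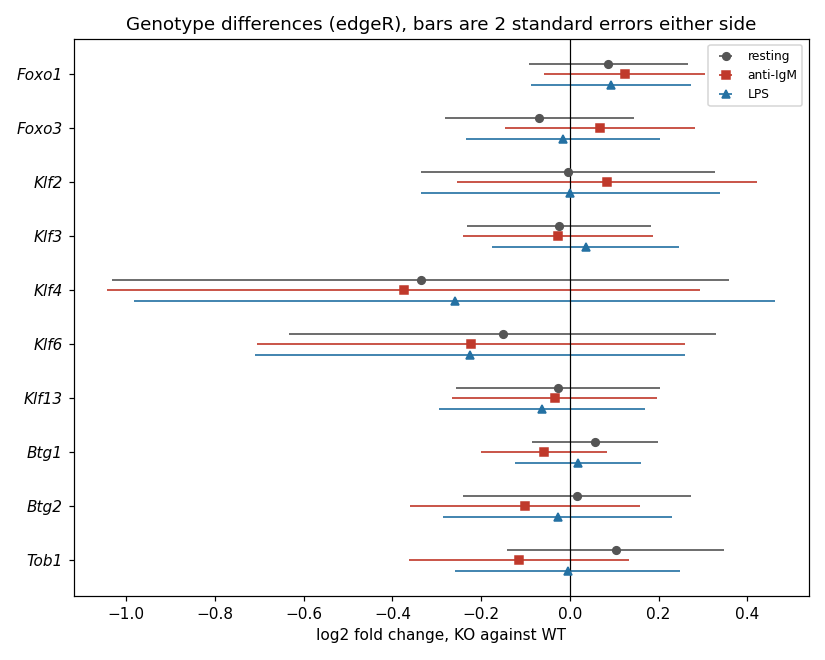
log2 fold change of each member in Ubqln1-/- (KO) against WT cells at rest (circles), with anti-IgM (squares) and with LPS (triangles), from edgeR with bars of 2 standard errors either side. In this fit without a replicate block all 30 intervals include 0, and those of Klf4 and Klf6 are the widest.

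The responses themselves also did not differ detectably. In the test of the difference between genotypes in the anti-IgM response 0 members and 0.00% of tested genes were called, and in that of the LPS response 0 members and 0.00%. The largest difference of log2 fold changes was that of Tob1 with anti-IgM, −0.22 with an interval of −0.57 to 0.13, and the difference for Klf2 was 0.09 (−0.39 to 0.56) with anti-IgM and 0.01 (−0.47 to 0.48) with LPS.

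Genes known as FOXO1 or KLF2 targets mostly fell with the members. Of 26 listed, 25 were tested, and 18 were lower and 5 higher with anti-IgM in WT cells, and 18 lower and 6 higher with LPS, against 32.2% lower and 32.4% higher of all tested genes with anti-IgM and 30.1% and 31.2% with LPS. The median log2 fold change of the list was −1.18 with anti-IgM and −1.14 with LPS, and 17 genes were lower with both stimuli in both genotypes, against 20.4% of tested genes. Itgb7, the integrin subunit of gut homing, fell from 81.2 ± 7.3 CPM in WT resting cells to 8.09 ± 3.2 CPM with anti-IgM (log2 −3.35, edgeR adjusted p = 9.77e-08). S1pr4, a sphingosine-1-phosphate receptor, went from 214 to 39.0 CPM (−2.45) with anti-IgM and to 46.5 CPM (−2.20) with LPS. Its relative S1pr1, a classic KLF2 target required for egress from lymphoid organs, had log2 fold changes of −1.12 with anti-IgM and −2.40 with LPS. Rag1, a subunit of the V(D)J recombinase whose gene FOXO1 activates, fell from 16.3 ± 11.4 to 2.42 ± 1.92 CPM (SD, n = 3) with anti-IgM (−2.70 ± 0.56, SE, edgeR adjusted p = 0.000451). Irs2, an insulin receptor substrate whose gene FOXO proteins activate in liver, went the other way with anti-IgM, from 57.8 to 326 CPM (2.49), and was −0.45 with LPS in WT (adjusted p = 0.0786) and −0.77 in Ubqln1-/- cells (adjusted p = 0.00687).

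The other FOXO, KLF and BTG/TOB genes did not share one direction. Of 17 relatives outside the members, 10 were tested, and with anti-IgM 5 were higher and 3 lower in WT cells, with LPS 3 and 2, where 32.4% and 32.2% of all tested genes were higher and lower with anti-IgM and 31.2% and 30.1% with LPS. Klf9 rose from 9.93 to 38.9 CPM with anti-IgM (log2 1.97, edgeR adjusted p = 5.03e-11) and was at 9.50 CPM with LPS. Klf10, a TGF-beta-inducible KLF, rose with anti-IgM (1.51) and LPS (0.78). Klf7 was lower with anti-IgM (−1.13), and Klf8 was lower with anti-IgM (−0.85) and LPS (−0.84). Btg3, at 0.240 CPM in WT resting cells, rose to 1.05 CPM with anti-IgM (2.16).

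Partners of the BTG/TOB proteins and the enzymes that control FOXO were mixed or higher. Of 14 CCR4-NOT subunits and other partners, all tested, 10 were higher and 2 lower with anti-IgM in WT cells, and 8 and 1 with LPS, beside the same 32.4% and 32.2%, and 31.2% and 30.1%, of all tested genes. The changes were small, with a median absolute log2 fold change of 0.32 with anti-IgM in WT cells against 0.47 over all tested genes. Prmt1, an arginine methyltransferase that binds BTG1 and BTG2, went from 139 to 283 CPM with anti-IgM (log2 1.02, edgeR adjusted p = 1.41e-07) and 263 CPM with LPS (0.91). Pabpc4, a poly(A)-binding protein, rose by 1.07 and 0.84, and the deadenylase subunits Cnot7 and Cnot8, which the BTG/TOB proteins bind, rose by 0.50 and 0.99 with anti-IgM. The anti-IgM libraries of Cnot8 were widely spread (120 ± 45.3 CPM in WT, against 60.5 ± 4.82 at rest, SD, n = 3). With LPS Cnot8 was −0.22 in WT (edgeR, adjusted p = 0.358), while Cnot7 rose by 0.45. Of 26 genes of PI3K, AKT and SGK control, all tested, 9 were higher and 7 lower with anti-IgM, and 6 and 9 with LPS, which is near the shares of all tested genes. Pik3ap1, the BCR adaptor BCAP that recruits PI3K, rose with anti-IgM from 185 to 565 CPM (1.61) and was 0.14 with LPS (adjusted p = 0.213). Sgk3 (−1.47) and Pik3r1, the regulatory subunit p85 (−0.93), were lower with anti-IgM. With LPS, Sgk1 was lower (−1.32) and Ywhag, a 14-3-3 protein of the family that holds phosphorylated FOXO in the cytosol, was higher (0.88). No gene of these 4 lists was called between genotypes in any condition (edgeR), with 0 to 3 per list and condition at an unadjusted p under 0.05. Of the 10 tested relatives, 2 had such a p at rest, 3 with anti-IgM and 2 with LPS, against 4.22%, 5.14% and 3.93% of all tested genes. The median log2 difference of the relatives with anti-IgM was −0.21, against 0.002 over all tested genes. The other lists, of 14 to 26 tested genes, held 0 to 2 each.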

How the data were processed

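Splenic B cell polyA libraries (18, of 50 base reads) were analysed, 3 in each group of genotype and stimulus, from the processed tables. Per the labels and methods, the authors aligned reads with GSNAP to GRCm38, and the submitters' processing notes also name limma and R 3.2.2. The deposited count of each Entrez gene is the number of reads over its exons, without normalization, and the authors deposited beside it the gene width and an RPKM (the count scaled to gene width and total reads). How reads were assigned to exons, and with which gene models, is not given in the sources used here. RefSeq symbols on GRCm38.p6 matched 25035 of the 28096 genes.

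Counts were tested in edgeR 4.0.16 (TMM, filterByExpr, 14161 genes, quasi-likelihood test, Benjamini-Hochberg adjustment), in one fit of the 18 libraries on their 6 groups, without a block, as the study's limma models had a single term. For the RNASeq levels of Myc and Ccnd2 the study used a paired T test, so the fit without a block does not follow all of its tests. A gene was called at an adjusted p under 0.05. CPM and RPKM printed here use TMM-scaled library sizes. The scripts were tested on simulated counts. Groups were taken from sample titles, and replicates called 1 carry no number and were numbered by elimination. Deviations of same-numbered libraries correlated at 0.055 to 0.516 (43 of 45 pairs above 0.1), and in 8 of the 9 pairwise comparisons all pairs exceeded 0.1, so a replicate block was an alternative whose value is printed where it changes a call. The other alternatives were limma with voom, DESeq2 1.42.0, other filters and normalization, the compared libraries alone, stricter thresholds and leaving out each library.

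The members and the gene lists were chosen with earlier results of these data known. All 10 members are named in full. Of each other list, the 4 genes with the largest change with anti-IgM and the 2 with the largest with LPS in WT cells are named, among those called in the same direction in both genotypes with a mean of at least 1 CPM, together with the 3 genes most like each member called in all comparisons with resting cells. A gene that this rule names is not reported here. List counts were read against all tested genes and no set test was run.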

Additional observations from a re-analysis of the deposited data

How the results depend on the processing

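Under another tool, normalization, filter, choice of libraries or the replicate block, 755 of 770 log2 fold changes of members kept their side of the threshold. With one library left out 747 of 780 did. Among these, no value called in the main fit or in the alternative changed direction. Changes of sign between values called in neither fit were not counted. Requiring an absolute log2 fold change above 1 left 5 members called with anti-IgM in each genotype, 3 in WT and 2 in Ubqln1-/- cells with LPS, and 0 for LPS against anti-IgM. The thresholds of the study left 1 with anti-IgM in each genotype and 0 with LPS or between stimuli. For LPS against anti-IgM in WT, fitting the compared libraries alone left 3 members, and leaving out one library left 3 to 5 of 6, and 3 to 4 of 5 in Ubqln1-/- cells, with fewer samples in these fits. Leaving out one library left 7 to 8 with anti-IgM in each genotype, and 7 to 9 in WT and 8 to 9 in Ubqln1-/- cells with LPS. With the replicate block 9 members were called with either stimulus in each genotype, and 8 in WT and 7 in Ubqln1-/- cells for LPS against anti-IgM, the added calls being Klf4 and Klf6, and the block changed no other call of a member. Apart from the thresholds of the study with anti-IgM, shares of all tested genes at these other settings were not set beside these counts. The counts therefore show how member calls moved between settings, and not an excess over other genes. Over all genes the block called 49 genes between genotypes at rest, 94 with anti-IgM and 125 with LPS, against 8, 14 and 6 without it, and DESeq2 called 32, 47 and 51. The deposited RPKM had a median of 26.7 over the group means of members against 30.3 here, because it divides by all reads, of which the counts are 83.8% to 88.4%. Of the 21 genes most like a member, 20 remained with a prior count of 0.5 and 5 with group means in place of libraries, and the cause was not tested. Klf4 had the fewest counts of the members, 38 to 203 per library.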

Other observations

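Other genes linked to lymphocyte quiescence also moved mostly downwards. Of 18 listed, all tested, 12 were lower and 2 higher with anti-IgM in WT cells (edgeR, adjusted p under 0.05), and 11 lower and 3 higher with LPS, and 10 were lower with both stimuli in both genotypes. Cdkn1b and Rbl2, which are among these 10, are also on the list of FOXO1 or KLF2 targets and were counted there too. Of all tested genes, 32.2% were lower with anti-IgM and 30.1% with LPS in WT cells, and 20.4% with both in both genotypes. Ets1, a transcription factor that restrains B cell differentiation, fell from 1613 to 413 CPM with anti-IgM (log2 −1.97) and 739 CPM with LPS (−1.13). Mxd4, a MYC antagonist, had log2 fold changes of −1.53 with anti-IgM and −2.06 with LPS, and Rbl2, the pocket protein p130, of −1.26 and −1.15. Vsir, which encodes the checkpoint protein VISTA, rose with anti-IgM from 21.2 to 128 CPM (2.59) and was 0.37 with LPS in WT (adjusted p = 0.0439) and 0.28 in Ubqln1-/- cells (adjusted p = 0.13).

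The members lower with both stimuli differed in shape. By the root mean square difference of log2 CPM over the 18 libraries, each gene centred on its mean, the closest pair of members was Foxo1 and Btg2 (0.152), then Foxo1 and Klf3 (0.172), Klf3 and Btg2 (0.199), and Foxo3 and Tob1 (0.199). Among all tested genes, those most like Foxo1 were Tonsl (0.069), Ablim1 (0.071) and Cdk19 (0.074), and those most like Foxo3 were Fam102a, Sntb2 and Rnf41. Klf2 was closest to S1pr4 (0.156), which is on the target list, then to Acss1 and E130215H24Rik. Klf3 was closest to Irgq, Pcmtd2 and Slc10a7, and Klf13 to Tk2, Zfp36l2 and Smpd1. Btg2 was closest to Stim1, Crlf3 and H2-Ob, and Tob1 to Hbp1, Paip2 and Calcoco1. These are descriptions over 18 libraries that share resting controls.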
